A study of Mus musculus with 6 samples.

Results

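Expression of 10 genes of the lysosomal protease system was followed in a mouse macrophage line: 9 proteases, Ctsa, Ctsb, Ctsc, Ctsd, Ctsh, Ctsl, Ctss, Ctsz and Lgmn, and Cst3, the gene of the protease inhibitor cystatin C. They were the rows of the deposited gene table whose Ensembl identifiers, without their versions, carry these symbols in GENCODE M21, and all 10 were found among the 55487 genes of the table. The line, RAW264.7, can be turned into bone-resorbing osteoclasts, and RNA of 6 samples of it had been sequenced. Both cytokines that make osteoclasts from macrophages, RANKL and M-CSF, had been given to all 6. The labels give the 3 control samples the genotype wt, and the study's design text calls them one untreated macrophage line. The 3 others have the genotype RhoA knockout and are titled SMART-Cas9, and the design text describes a knockout aimed at macrophages, in a study of bone destruction in rheumatoid arthritis. A group with Cas9 but no RhoA target is not among the samples, and an effect of Cas9 itself cannot be told apart from one of the edit. Whether the knockout cells came from 1 clone is not given in the sources used here.

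Cathepsins and legumain are made as inactive precursors that are sorted to endosomes and lysosomes, where acid and other proteases activate them. Ctsb, Ctsc, Ctsh, Ctsl, Ctss and Ctsz encode cysteine proteases of the papain family, Lgmn encodes a cysteine protease that cuts after asparagine, Ctsd encodes an aspartic protease and Ctsa a serine carboxypeptidase. Cystatin C is a secreted inhibitor that blocks papain-family cathepsins and, through a separate surface, legumain. In macrophages and dendritic cells these enzymes degrade engulfed protein and trim the invariant chain, and in osteoclasts some of them take part in the breakdown of bone matrix.

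The targeted gene was not lower in the edited libraries. Rhoa (chromosome 9, 108306129 to 108337934, GRCm38) had 1655, 1510 and 1440 counts in control replicates 1 to 3 and 2805, 2670 and 2395 in the others. After scaling by library size and composition (TMM), these were 21.4, 25.8 and 24.4 CPM (counts scaled to a common library size) against 34.2, 29.9 and 31.5, with a log2 fold change of 0.41 ± 0.12 (SE) and an edgeR adjusted p of 0.0136. A count over the whole gene does not tell an edited transcript from an intact one, so the group is called the libraries labelled RhoA knockout. Library totals ran from 60198645 to 81830819 counts, and both libraries numbered 3 stood apart from their group (a chi-square of gene counts per degree of freedom of 80.8 or more, against 26.3 or less between replicates 1 and 2). All 12 macrophage markers examined had counts, and neutrophil, mast cell and lymphocyte markers were at or near 0. The labels do not say whether replicates were separate cultures, and p-values therefore cover the spread among these 6 samples alone, which can be technical. Group values are means ± SD of TMM-scaled CPM with n = 3 per group, and fold changes ± SE are on the log2 scale, labelled knockout minus control.

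Of the 10 genes, 7 rose, 2 fell and 1 did not pass the test (edgeR quasi-likelihood test, adjusted p under 0.05 over 12930 genes). All 10 passed the filter on low counts, Ctsh through the labelled knockout libraries alone. A large part of the transcriptome differed: 43.2% of all genes tested passed, 21.0% as higher and 22.3% as lower. Ctsa, Ctsb, Ctsh, Ctss, Ctsz, Lgmn and Cst3 rose, Ctsd and Ctsl fell, and Ctsc was not called. The median log2 fold change of the 10 genes was 1.49, beside -0.03 over all genes tested. Both this median and the count of 7 rises include Ctsh, which was tested only because the labelled knockout libraries were high. Among the other 9 genes the middle value was that of Ctsz, 0.99. The 3 libraries of each group did not overlap for 9 of the 10 genes, 7 as higher and 2 as lower. The same held for 55.8% of all genes, 27.5% as higher and 28.3% as lower. Changes of at least 4-fold that passed the test were seen in 3.33% of all genes upwards and 4.63% downwards, and Ctsa, Ctsh, Ctss, Lgmn and Cst3 were past that size upwards and Ctsl downwards. Cst3, Ctss and Ctsl lay close to the limit and were on its other side in some settings, with log2 fold changes of 1.81, 1.82 and -1.82 once the length trend was removed. Lgmn was at 2.00 in that setting and at 1.99, just short of the limit, with both libraries numbered 3 left out. In bulk RNA, fewer cells of a type and less RNA per cell cannot be told apart.

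**Figure D1:**
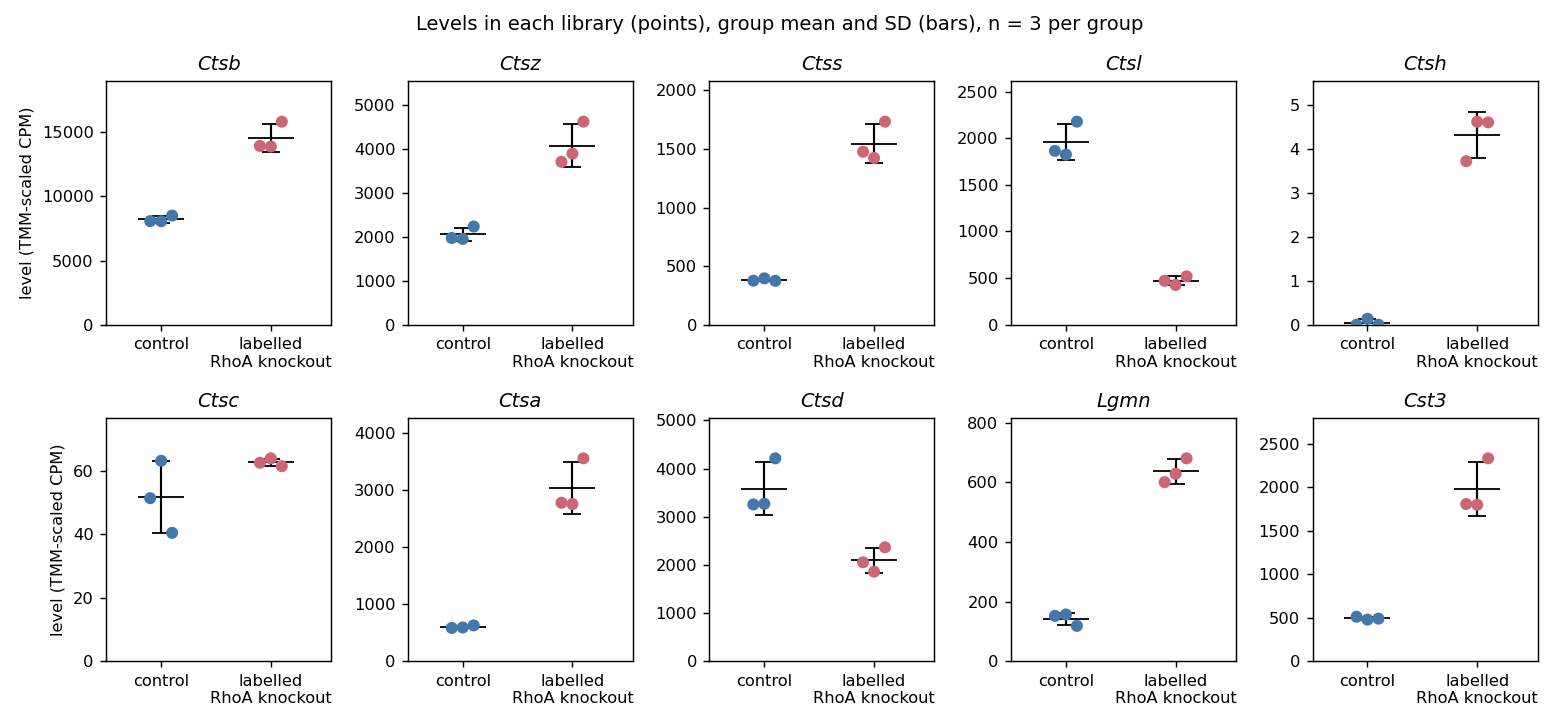
TMM-scaled CPM (vertical axes, each starting at 0) of the 10 genes in every library, with points for libraries, long bars for group means and short bars for 1 SD, n = 3 per group. Ctsl and Ctsd are lower in the libraries labelled RhoA knockout, Ctsc overlaps between the groups, and the other 7 genes are higher in all 3 labelled knockout libraries.

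Short stretches around the start sites are shown for matches to the E-box core and, in Ctss, to an interferon-response form. Textbook knowledge ties these motifs to lysosomal or macrophage genes, and risen and fallen genes share the E-box core. The PU.1 match of Ctsc, given below, is not shown as a stretch. RefSeq promoter windows (GRCm38.p6, 250 bases before to 50 after a start) were found for 8 of the 10 genes, Ctsa, Ctsc, Ctsd, Ctsl, Ctss, Ctsz, Lgmn and Cst3, in 10 windows. The E-box core CACGTG, read by MiT/TFE and other helix-loop-helix factors, is its own reverse complement and was in 4 of these windows, beside 7.15% of all 32817 windows of that length. Capitals mark the motif, and each stretch runs 5′ to 3′ on the gene's strand.
Ctsa (chr2:164833758-164833786, plus strand): tgtCACGTGatgcagatgctCACGTGacc
Lgmn (chr12:102439127-102439150, minus strand): aatgtctgtCACGTGgtccatttt
Ctsd, distal (chr7:142388058-142388077, minus strand): tccccCACGTGacctgtatc
Ctsd, proximal (chr7:142387911-142387934, minus strand): cccgcgtctCACGTGacccgttga
Ctsl (chr13:64370742-64370765, minus strand): gttagaagcCACGTGctgatctaa
In Ctsa the 2 cores began at bases -12 and 6 from the start site of the second of its windows (bases run from -1 to 1 with no 0). In Lgmn the core began at -49 in the window that lies inside the gene, and the window over the annotated 5′ end of the gene held none. Ctsd held cores at -245 and -98 and Ctsl held 1 at -236. Of these stretches only the distal one of Ctsd lies outside the span of its gene in GENCODE M21. Ctsa and Lgmn rose and Ctsd and Ctsl fell, so the core was in windows of genes of both directions. The longer form TCACGTG or its reverse complement CACGTGA, which contains the core, was in the same windows of Ctsa, Lgmn and Ctsd and in 3.76% of all windows, while the core of Ctsl lacked it.

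Ctss held 2 other motifs close to its start, and the 100 bases before the start are shown with the interferon-response form (GAAA, any 2 bases, GAAA) in capitals.
Ctss (chr3:95526686-95526785, plus strand): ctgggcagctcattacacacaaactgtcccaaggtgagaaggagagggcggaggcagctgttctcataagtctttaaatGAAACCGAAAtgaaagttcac
That motif began at base -21 and was in 3.43% of all windows. The PU.1 form AGGAAGT, searched on both strands and in 9.35% of all windows, began at -2 in Ctss and at -151 in Ctsc. The AP-1 form TGANTCA, in 7.81% of all windows, was in none of the 10 windows. The windows of Ctsz and Cst3 held none of the 5 motifs searched. A match describes the letters and does not show a bound site, and a missing match says only that these letters are not in the window.

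Cathepsin B, a papain-family protease abundant in macrophage lysosomes, was the most counted of the 10 genes in both groups and rose 1.77-fold. Ctsb (chromosome 14, 63122462 to 63145923) measured 8081, 8069.9 and 8512 CPM in control replicates 1 to 3 and 13948, 13896 and 15838 CPM in the labelled knockout replicates. Every labelled knockout library was above every control, with means of 8221 ± 252 and 14561 ± 1107 CPM and a log2 fold change of 0.82 ± 0.12 (edgeR adjusted p = 0.000209). Among all genes it held rank 13 by mean CPM in each group. Cathepsin Z, a carboxypeptidase of the same family, rose 1.98-fold. Ctsz (chromosome 2, 174427493 to 174439039) measured 1968, 1948 and 2229 CPM in control and 3699.5, 3884 and 4611 CPM in the labelled knockout libraries. The groups were apart, at 2049 ± 157 and 4065 ± 482 CPM, and the log2 fold change was 0.99 ± 0.13 (edgeR adjusted p = 7.78e-05).

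Cathepsin S, which cuts the invariant chain in antigen-presenting cells and stays active at neutral pH, rose 4.04-fold. Ctss (chromosome 3, 95526786 to 95556403) was narrowly spread in control, at 376, 396 and 374 CPM, and measured 1476, 1423 and 1733 CPM in the labelled knockout libraries. The lowest labelled knockout library was far above the highest control, and the means were 382 ± 11.9 and 1544 ± 166 CPM, a log2 fold change of 2.02 ± 0.12 (edgeR adjusted p = 2.02e-07).

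Cathepsin L, a broad endopeptidase that has substrates in common with cathepsin S, went the other way. Ctsl (chromosome 13, 64359337 to 64370890) measured 1864, 1824 and 2177 CPM in control and 471, 426 and 518 CPM in the labelled knockout libraries. No library overlapped, and the fall from 1955 ± 193 to 472 ± 46.0 CPM was 4.15-fold, with a log2 fold change of -2.05 ± 0.13 (edgeR adjusted p = 2.55e-07). In rank by mean CPM, Ctsl went from 40 in control to 167 in the labelled knockout libraries. The count of Ctss per count of Ctsl, a ratio that needs no scaling between libraries, was 0.202, 0.217 and 0.172 in control and 3.14, 3.34 and 3.35 in the labelled knockout libraries. The ratio was thus 16.6 times as high on average, and its groups were far apart.

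Cathepsin H, an aminopeptidase of the papain family, was almost without counts in control. Ctsh (chromosome 9, 90054152 to 90076089) had 0, 8 and 0 counts in control replicates 1 to 3 and 306, 414 and 351 in the labelled knockout libraries, which is 0 to 0.137 CPM and 3.73 to 4.63 CPM. All 8 control counts were in replicate 2. Summed over each group and scaled, the ratio was 105, with a 95% interval of 53.2 to 244 that covers counting error only. The table holds an excess of low counts divisible by 4 (each library had at least 1.325 such values for every value expected from the adjacent counts), so a count may not be 1 independent read. If 4 counts made 1 unit, control would hold 2 units and the interval would widen to 28.9 to 875. The edgeR adjusted p was 3.93e-05, and the fitted log2 fold change, 6.62 ± 0.78, depends on the prior count. Without control replicate 2 the controls had 0 counts and the fitted value moved to 11.37.

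Cathepsin C, which activates the serine proteases of granules, was not called. Ctsc (chromosome 7, 88278085 to 88310888) measured 51.4, 63.2 and 40.5 CPM in control and 62.5, 63.9 and 61.5 CPM in the labelled knockout libraries. Control replicate 2 lay within the range of the other group, while the other 2 controls were below it. The means were 51.7 ± 11.3 and 62.6 ± 1.23 CPM, with a log2 fold change of 0.28 ± 0.14 (edgeR adjusted p = 0.141). The gene passed in 2 alternative settings, without control replicate 2 (0.43, edgeR adjusted p = 0.028) and with the trend over gene length removed (0.46, adjusted p = 0.0234).

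Outside the papain family, the serine carboxypeptidase Ctsa showed the largest fold change among the well-counted risen genes, 5.02-fold. Cathepsin A also protects lysosomal sialidase and beta-galactosidase in a complex. Ctsa (chromosome 2, 164832873 to 164841032) measured 585, 593 and 629.7 CPM in control and 2774, 2751 and 3550.0 CPM in the labelled knockout libraries. The groups were apart, at 602 ± 23.9 and 3025 ± 455 CPM, and the log2 fold change was 2.33 ± 0.14 (edgeR adjusted p = 1.54e-07). Labelled knockout replicate 3 had the highest TMM-scaled level of its group for Ctsa, and likewise for Ctsb, Ctsd, Ctsl, Ctss, Ctsz, Lgmn and Cst3. Its TMM factor was 0.930, beside 1.144 and 1.123 for labelled knockout replicates 1 and 2, so this order depends on the scaling. For Ctsb and Lgmn, replicate 2 had more raw counts than replicate 3 (1242309 against 1204622 and 56252 against 51790), in a smaller library. With both libraries numbered 3 left out, a comparison added after the data were seen, the same counts of 7 higher and 2 lower were obtained.

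Cathepsin D, the main aspartic protease of lysosomes, fell 1.71-fold. Ctsd (chromosome 7, 142375911 to 142388038) measured 3255, 3268 and 4211 CPM in control and 2056, 1861 and 2367 CPM in the labelled knockout libraries. Control replicate 3 was the highest, and all controls were above all labelled knockout libraries. The means were 3578 ± 548 and 2095 ± 255 CPM, with a log2 fold change of -0.77 ± 0.15 (edgeR adjusted p = 0.00105). The count of Ctsa per count of Ctsd went from 0.180, 0.181 and 0.150 in control to 1.35, 1.48 and 1.50 in the labelled knockout libraries, 8.48 times as high on average.

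Legumain, which processes several cathepsin precursors to their double-chain forms, rose 4.45-fold. Lgmn (chromosome 12, 102394084 to 102439813) measured 153, 157 and 119 CPM in control and 601, 629 and 681 CPM in the labelled knockout libraries. Control replicate 3 was the lowest library and no libraries overlapped, with means of 143 ± 20.8 and 637 ± 40.5 CPM and a log2 fold change of 2.15 ± 0.13 (edgeR adjusted p = 2.06e-07). Per count of Ctsl, one of the proteases whose precursor it cuts, Lgmn went from 0.0743 ± 0.0171 to 1.36 ± 0.106 counts, 18.2 times as high.

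Cystatin C, the inhibitor, rose, and of its targets Ctsb, Ctsh, Ctss, Ctsz and Lgmn rose as well, while Ctsl fell and Ctsc was not called. Cst3 (chromosome 2, 148871722 to 148875692) measured 513, 480.3 and 491 CPM in control and 1809, 1799.9 and 2333 CPM in the labelled knockout libraries. The control libraries were close together and all below the others, with means of 495 ± 16.7 and 1981 ± 305 CPM and a log2 fold change of 2.00 ± 0.14 (edgeR adjusted p = 4.17e-07). Its ratio to its targets differed from gene to gene. Per count of Cst3, Ctss stood at 0.773 ± 0.0465 in control and 0.783 ± 0.0372 in the labelled knockout libraries, and Lgmn at 0.289 ± 0.0431 and 0.325 ± 0.0296, both with overlapping groups. Ctsb went from 16.6 ± 0.802 to 7.41 ± 0.536 counts per count of Cst3 and Ctsz from 4.14 ± 0.358 to 2.06 ± 0.0918, and neither overlapped. For Ctsl the ratio went from 3.95 ± 0.421 to 0.240 ± 0.0192. These ratios were described without a test. They use counts and not levels per length, so a ratio is read between libraries and not as an amount of one transcript against another.

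**Figure D2:**
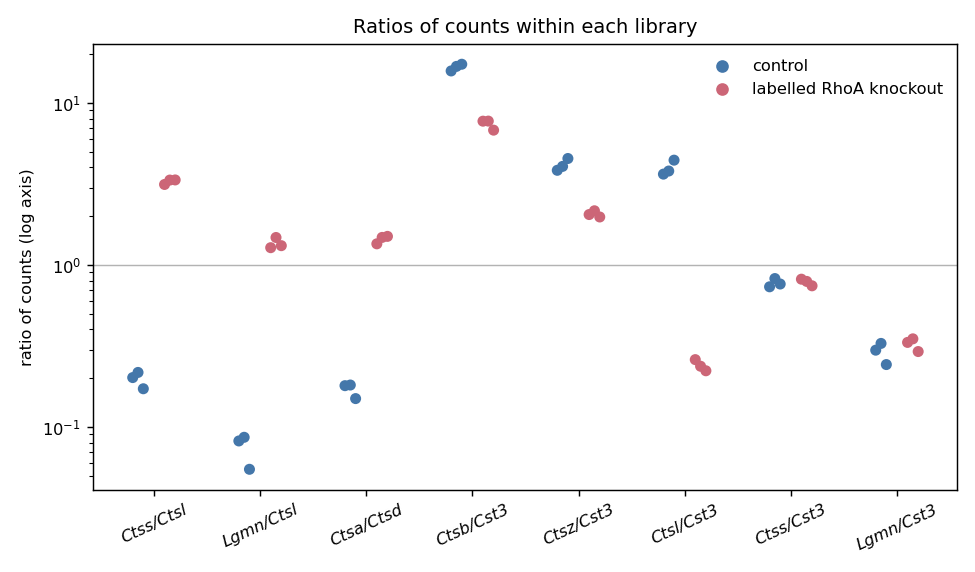
Ratio of the counts of 2 genes within each library (vertical log axis), blue for control and red for the libraries labelled RhoA knockout, 3 points per group. Ctss/Ctsl, Lgmn/Ctsl and Ctsa/Ctsd are higher in the labelled knockout libraries, Ctsb/Cst3, Ctsz/Cst3 and Ctsl/Cst3 are lower, and Ctss/Cst3 and Lgmn/Cst3 overlap.

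Together the 10 genes held 1.63, 1.63 and 1.67% of all counts in control and 3.08, 3.00 and 2.95% in the labelled knockout libraries, 1.64 ± 0.0260% against 3.01 ± 0.0648%. A share of counts depends on what the rest of the library holds. Spp1, the gene of the secreted matrix protein osteopontin, alone held 33.2 ± 0.658% of counts in control and 10.1 ± 0.670% in the others. With the 10 most counted genes set aside, the 10 protease and inhibitor genes held 4.14 ± 0.0495% and 5.45 ± 0.0709%, a ratio of 1.32 in place of 1.83. Mitochondrially encoded genes held 8.13 ± 0.970% and 11.4 ± 1.24% of counts, and whether this plays a part in any of these results was not tested.

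Within the counts of the 10 genes, the make-up changed for most members. Ctsb held 47.1 ± 1.55% in control and 51.3 ± 1.12% in the labelled knockout libraries. Ctsd went from 20.4 ± 1.75% to 7.36 ± 0.354% and Ctsl from 11.2 ± 0.378% to 1.66 ± 0.0806%. Ctsd and Ctsl thus held a much smaller share of the counts of the 10 genes in the labelled knockout libraries. Ctsa went from 3.45 ± 0.0898% to 10.6 ± 0.520%, Cst3 from 2.84 ± 0.216% to 6.94 ± 0.366%, and Ctss from 2.19 ± 0.184% to 5.43 ± 0.0900%. Ctsz moved from 11.7 ± 0.138% to 14.3 ± 0.452% and Lgmn from 0.826 ± 0.166% to 2.25 ± 0.103%. The shares of Ctsc and Ctsh were below 0.4% in every library.

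**Figure D3:**
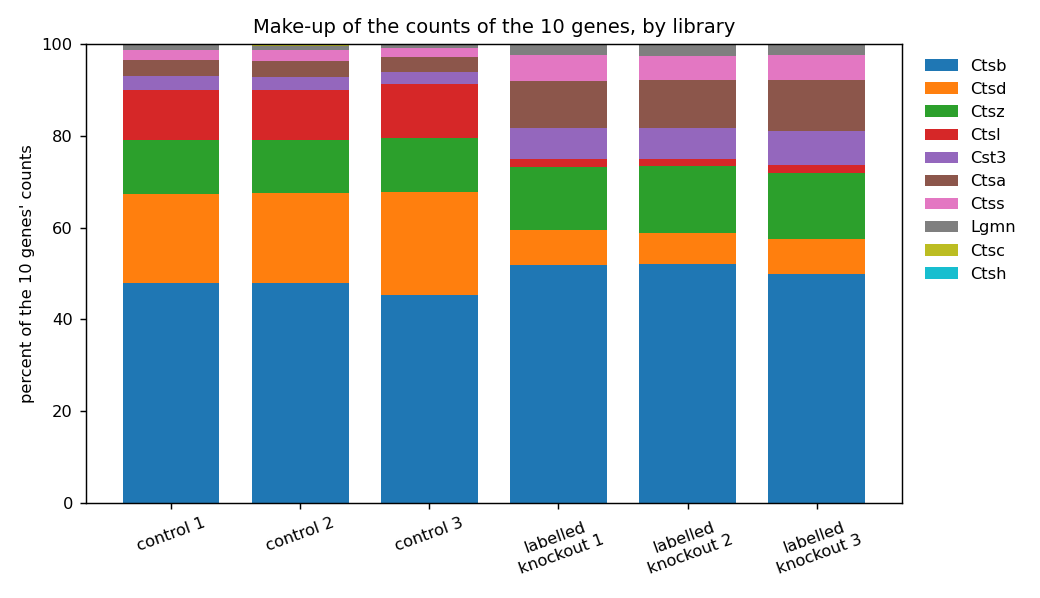
Stacked bars of the percent of the 10 genes' counts held by each gene (vertical axis, 0 to 100), 1 bar per library. The bars of a group resemble each other, Ctsd and Ctsl are narrower in the 3 labelled knockout bars, and Ctsa, Cst3, Ctss and Lgmn are wider.

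Per kb of union exon length, the order of levels in control was Ctsd (1522 ± 233 CPM per kb), Ctsz (1422 ± 109), Ctsb (1359 ± 41.7), Cst3 (391 ± 13.2), Ctsl (301 ± 29.8), Ctss (281 ± 8.73), Ctsa (128 ± 5.07), Lgmn (61.6 ± 8.96), Ctsc (8.90 ± 1.95) and Ctsh (0.0101 ± 0.0175). The libraries of Ctsd, Ctsz and Ctsb overlapped, as did those of Ctsl and Ctss, so these neighbours were not apart beyond their spread. In the labelled knockout libraries the order was Ctsz (2821 ± 334 CPM per kb), Ctsb (2406 ± 183), Cst3 (1564 ± 241), Ctss (1137 ± 122), Ctsd (891 ± 108), Ctsa (642 ± 96.5), Lgmn (274 ± 17.5), Ctsl (72.7 ± 7.08), Ctsc (10.8 ± 0.211) and Ctsh (0.961 ± 0.115). By this length only Ctsz and Ctsb overlapped among neighbours there. The order depends on the length used, as for Ctsl, whose union of exons is 6489 bp and whose shortest transcript with the full coding sequence is 1971 bp. With that shorter length Ctsl stood at 992 ± 98.1 CPM per kb in control, above Cst3 at 575 ± 19.4, and at 239 ± 23.3 in the labelled knockout libraries, still between Lgmn and Ctsc. By that length Ctsb came first in both groups, and in the labelled knockout libraries Ctsz overlapped with Cst3, Ctss with Ctsd, and Ctsd with Ctsa.

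For all of the 10 genes but Ctsc and Ctsh, the log2 fold changes moved little between settings. Leaving out each library in turn, other scalings and filters, removal of the length trend, DESeq2, the replicate number as a block and counts divided by 4 gave 2.21 to 2.49 for Ctsa, 1.82 to 2.18 for Ctss, 2.00 to 2.32 for Lgmn and 1.81 to 2.16 for Cst3. Under the same settings Ctsb ran from 0.77 to 1.02, Ctsz from 0.80 to 1.15, Ctsd from -0.92 to -0.60 and Ctsl from -2.12 to -1.82. Ctsc ran from 0.13 to 0.46, and its call changed, and Ctsh ran from 5.95 to 11.37. Scaling by library totals in place of TMM factors moved the median log2 fold change over all genes to 0.15 from -0.03, and the 10 genes kept their directions and calls. Reads were counted with a strand setting that is not given in the sources used here, so genes with overlapping exons could share reads. The neighbours that overlap Ctsa (Neurl2 and Pltp), Ctsb (Fdft1) and Ctsz (Nelfcd) had at most 0.476% of the count of the protease gene, and those that overlap Ctsd and Ctsl had at most 1 count. No other annotated transcript matched these genes at 95% identity over 200 bp or more.

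**Figure D4:**
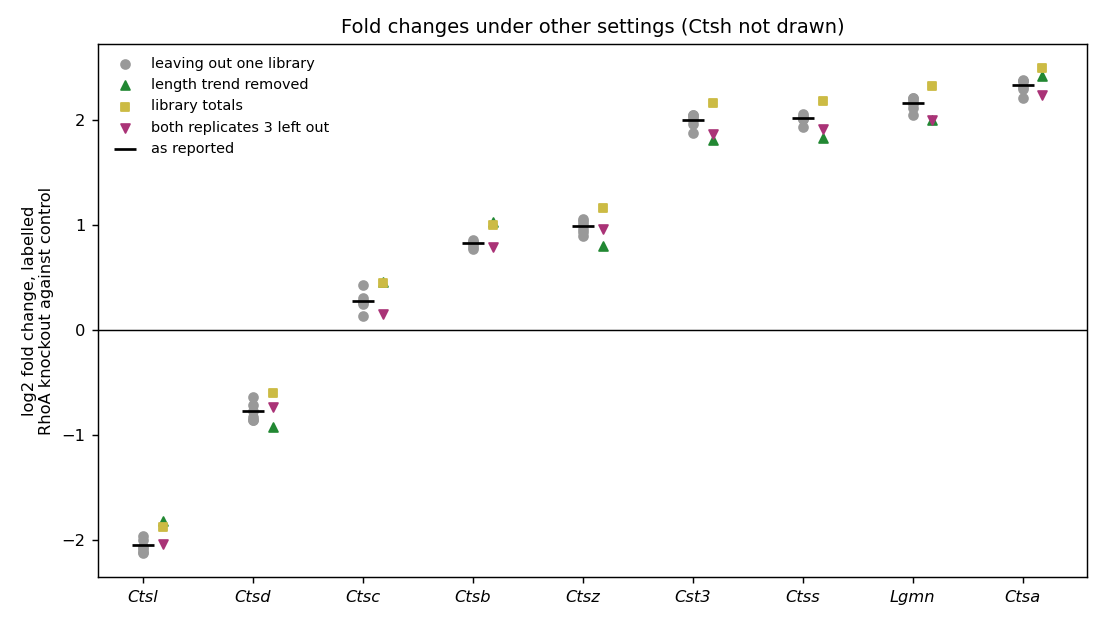
Log2 fold change (vertical axis, labelled RhoA knockout against control) of 9 genes as reported (black bars) and under other settings: without 1 library each (grey circles), length trend removed (green triangles), library totals (yellow squares) and both libraries numbered 3 left out (purple triangles). Ctsh is not drawn, because its control libraries are near 0, and no gene drawn changes direction.

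Among 17 further cathepsins and related proteases, 5 had enough counts to be tested, 3 rose and 0 fell, with a median log2 fold change of 0.94. The counts of this and the following lists stand beside 43.2% of all genes tested, 21.0% called higher and 22.3% lower. By edgeR at an unadjusted p under 0.05, and by DESeq2, the number lower was likewise 0. Ctsf, another papain-family protease, rose from 1.53 ± 0.534 to 9.61 ± 1.10 CPM (log2 fold change 2.65 ± 0.27, edgeR adjusted p = 9.06e-06). Ctsk, the collagen-cutting cathepsin of osteoclasts, rose from 5.81 ± 1.18 to 12.5 ± 0.593 CPM (1.10 ± 0.18, edgeR adjusted p = 0.000324). Every labelled knockout library was above all controls for both genes. Ctse, an aspartic protease of endosomes, went from 1.52 ± 0.585 to 2.91 ± 0.0540 CPM (0.94 ± 0.32, edgeR adjusted p = 0.034), a call lost without control replicate 1 or 2 or any one labelled knockout library, with adjusted p from 0.0675 to 0.116, and with the length trend removed (0.0527).

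A list of other cystatins and protease inhibitors was mixed: 5 of 25 symbols were tested, 1 rose, 3 fell and 1 was not called, with a median of -0.48. All 3 falls were serpins. The tested cystatins, Cst7 and Cstb, had positive log2 fold changes, that of Cstb not called, so the median does not describe the cystatins. Serpinb9, an intracellular serpin known for blocking granzyme B, fell from 8.10 ± 0.609 to 1.60 ± 0.233 CPM (-2.34 ± 0.22, edgeR adjusted p = 4.11e-06). Serpinb6a, a serpin of the same clade, fell from 42.2 ± 8.24 to 30.2 ± 0.868 CPM (-0.48 ± 0.14, edgeR adjusted p = 0.0129), and this call was lost with library totals (0.11) and with the length trend removed (0.0706). Serpinb6b had 95, 81 and 152 counts in control and 69, 29 and 35 in the others (-1.67 ± 0.49, edgeR adjusted p = 0.0154). Cst7, the gene of cystatin F, a cystatin that is targeted to lysosomes, had 24, 37 and 14 counts in control and 97, 111 and 140 in the labelled knockout libraries (1.85 ± 0.51, edgeR adjusted p = 0.0107). Labelled knockout replicate 3 bears on both: without it the adjusted p was 0.0556 for Serpinb6b and 0.0565 for Cst7. Serpinb6b was also lost without control replicate 3 (0.0887) or labelled knockout replicate 2 (0.0555). Cstb, the gene of the cytosolic cystatin B, was named after its values were seen, as the most counted of the list: it measured 99.3, 85.3 and 133 CPM in control and 142, 123 and 141 CPM in the others. Its groups overlapped through control replicate 3, with a log2 fold change of 0.35 ± 0.15 (edgeR adjusted p = 0.0796), and without that library it passed (0.55, edgeR adjusted p = 0.00308). It also passed with library totals (0.53, 0.00965), counts divided by 4 (0.0459), both libraries numbered 3 left out (0.00617), DESeq2 (0.0473) and the replicate number as a block (0.0227).

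Sorting of these enzymes to lysosomes uses mannose 6-phosphate receptors, adaptors and the retromer complex, and all 21 such genes examined were tested. Of them 5 rose, 3 fell and 13 were not called, with a median of -0.19, while 43.2% of all genes tested were called. Psap, whose product prosaposin is a lysosomal precursor that travels by the same routes and is cut by cathepsins, rose from 195 ± 11.8 to 551 ± 38.4 CPM (1.50 ± 0.11, edgeR adjusted p = 8.37e-07). Cln3, a lysosomal membrane protein, fell from 16.9 ± 2.76 to 6.20 ± 1.23 CPM (-1.45 ± 0.19, edgeR adjusted p = 5.76e-05). Each had its 6 libraries in separate ranges. The retromer genes Vps35 and Vps29 rose 1.52-fold and 1.69-fold (0.60 ± 0.10 and 0.76 ± 0.14, edgeR adjusted p = 0.000488 and 0.000748), from 43.7 ± 3.20 to 66.3 ± 1.33 CPM and from 134 ± 23.9 to 227 ± 22.01 CPM.

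The MiT/TFE factors, which read the E-box in many lysosomal genes, and the proteins that hold them in the cytoplasm gave no called rise: of 9 tested genes 0 were higher and 3 lower, with a median of -0.31. The number higher was 0 as well by edgeR at an unadjusted p under 0.05 and by DESeq2. With the length trend removed the median was 0.07 and 1 gene was called. Rragc, a GTPase that carries these factors to the lysosome, fell from 13.7 ± 2.17 to 3.54 ± 0.719 CPM (-1.95 ± 0.20, edgeR adjusted p = 9.12e-06). Fnip2, a partner of folliculin, fell from 7.91 ± 1.66 to 4.20 ± 0.927 CPM (-0.91 ± 0.23, edgeR adjusted p = 0.00643), with 0.0631 after removal of the length trend. Tfec, a family member of macrophages, had 80, 24 and 58 counts in control and 19, 23 and 13 in the others (-1.87 ± 0.66, edgeR adjusted p = 0.0377), and its call was lost in 10 of 16 other settings, with adjusted p up to 0.174.

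The other factor genes of the family were named after their values were seen. Tfeb measured 1.14 ± 0.464 and 1.83 ± 0.0320 CPM (0.68 ± 0.37, edgeR adjusted p = 0.164), and Tfe3 measured 17.9 ± 2.11 and 14.4 ± 1.15 CPM (-0.31 ± 0.14, edgeR adjusted p = 0.0876). With the length trend removed the log2 fold change of Tfe3 changed direction, to 0.07. Mitf had 57, 319 and 33 counts in control and 300, 243 and 304 in the others, so control replicate 2 alone was at the level of the labelled knockout libraries (0.63 ± 0.86, edgeR adjusted p = 0.605). Without that library Mitf passed with a log2 fold change of 2.38 (edgeR adjusted p = 0.000552).

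Partners and substrates in class II antigen presentation and in granules were mostly without enough counts: 5 of 15 were tested, of which 4 rose and 1 was not called, with a median of 1.41. Cd74, the invariant chain that cathepsins S and L cut, rose from 135 ± 6.35 to 359 ± 17.6 CPM (1.41 ± 0.10, edgeR adjusted p = 7.64e-07). H2-DMa, a subunit of the peptide exchanger of class II, rose from 1.63 ± 0.376 to 9.21 ± 0.265 CPM (2.50 ± 0.22, edgeR adjusted p = 2.88e-06). Ifi30, a lysosomal thiol reductase, rose from 38.4 ± 4.70 to 86.0 ± 9.22 CPM (1.16 ± 0.12, edgeR adjusted p = 1.37e-05). H2-DMb2, which encodes the partner chain of that exchanger, had 0 counts in all controls and 76, 117 and 62 in the labelled knockout libraries, at least 66.8-fold higher against a floor of 3 counts over the control group, or 16.8-fold if 4 counts made 1 unit. It passed the filter on low counts through the labelled knockout libraries alone, so it entered the test, and the count of 4 rises, only because those libraries were high (edgeR adjusted p = 0.000142). H2-DMb1, the other DMb gene of the list, had 0 counts in all 6 libraries and was named after its values were seen. How reads were assigned between these DMb genes was not examined. Of the class II chains themselves, H2-Aa and H2-Eb1 had 0 counts in all 6 libraries, and H2-Ab1 had 24, 14 and 39 counts in control and 49, 49 and 68 in the others and was not called (0.75 ± 0.63, edgeR adjusted p = 0.374). These chains were named after their values were seen.

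Of the 2 enzymes that cathepsin A protects, 1 fell and 1 was not called, and 0 rose by edgeR, adjusted or at an unadjusted p under 0.05, or by DESeq2. Neu1, the lysosomal sialidase, fell from 19.2 ± 1.07 to 13.7 ± 1.50 CPM (-0.49 ± 0.13, edgeR adjusted p = 0.00983), a call that was lost with library totals (0.0978). Glb1, the beta-galactosidase, was named after its values were seen and measured 20.3 ± 3.41 and 20.6 ± 2.52 CPM (0.02 ± 0.15, edgeR adjusted p = 0.92).

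**Figure D5:**
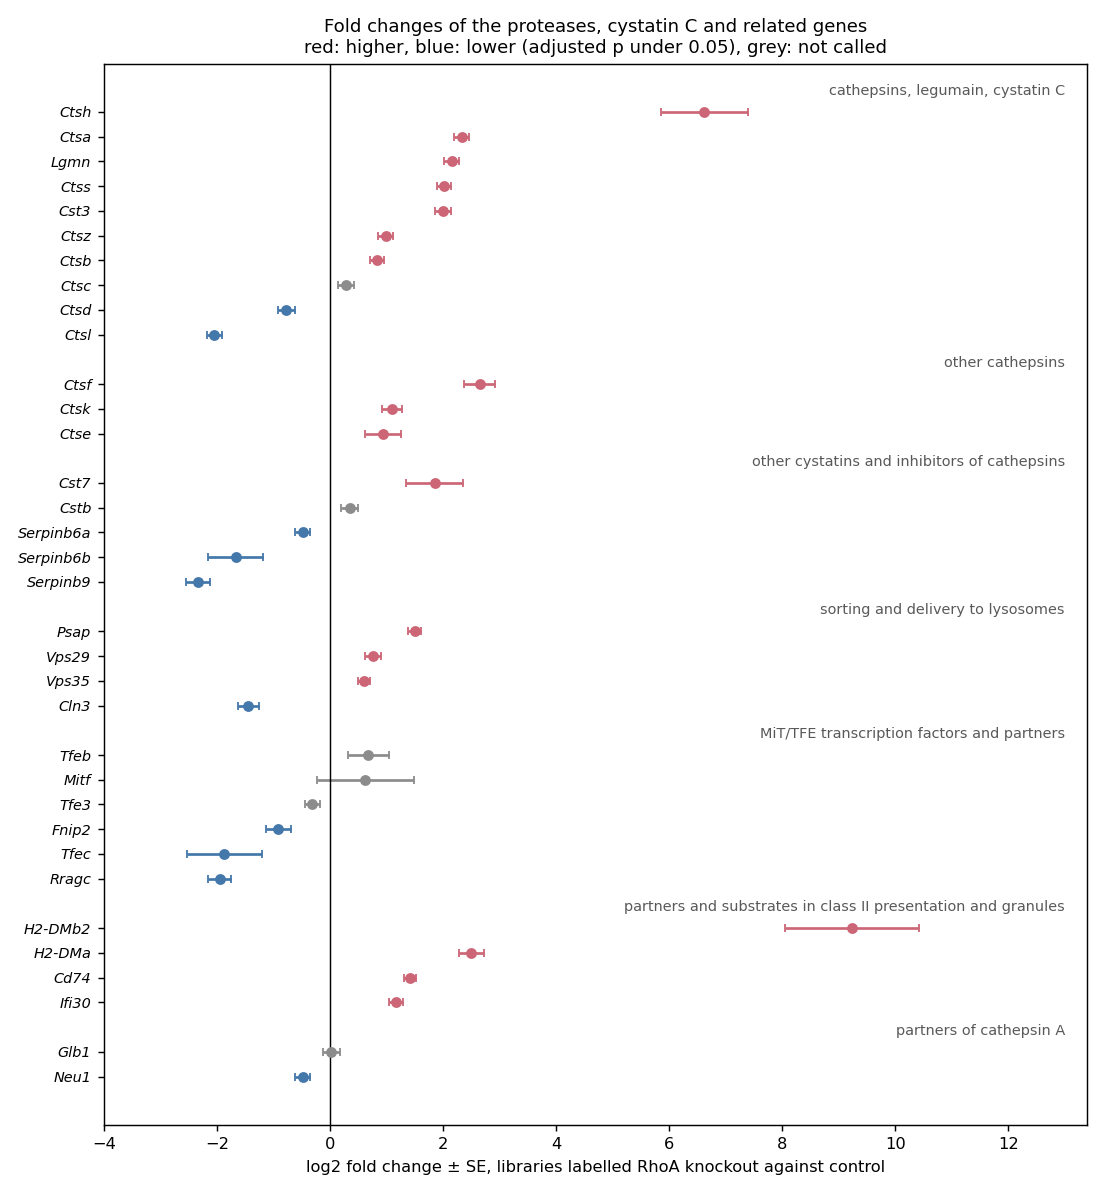
Log2 fold change ± SE (horizontal axis, labelled RhoA knockout against control) of the 10 genes and of the related genes named, grouped by list, with red for higher, blue for lower and grey for not called at adjusted p under 0.05. The points of Ctsh and H2-DMb2, far to the right, have control libraries at or near 0 and depend on the prior count of the fit, and Ctsl and Ctsd are the called falls among the 10 genes.

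Markers of macrophages and osteoclasts moved beside these genes. Of 12 macrophage markers, all tested, 4 rose, 4 fell and 4 were not called, with a median of 0.07, and their summed level was 18281 to 20136 CPM in control and 81263 to 113846 CPM in the labelled knockout libraries. Lyz2, the lysozyme gene, made up most of that sum. Defining markers went both ways: Csf1r rose from 257 ± 25.7 to 577 ± 34.2 CPM and Cd68 from 1366 ± 86.2 to 3369 ± 415 CPM, while Adgre1 fell from 14.0 ± 0.902 to 9.82 ± 2.23 CPM and Itgam from 28.3 ± 2.00 to 7.01 ± 1.202 CPM (edgeR adjusted p = 8.02e-06, 8.1e-06, 0.0363 and 9.63e-07). Lyz2 and Fcgr3 were the other called rises, and Fcgr1 and Cd14 the other called falls. Of 12 osteoclast markers 10 had a count, 9 were tested, 2 rose, 4 fell and 3 were not called, with a median of -0.77 and summed levels of 40.8 to 41.4 CPM and 35.6 to 37.7 CPM. Ctsk rose, as given above, while Acp5, the tartrate-resistant phosphatase, fell from 2.22 ± 0.434 to 0.823 ± 0.123 CPM (-1.43 ± 0.34, edgeR adjusted p = 0.00509), and Calcr and Oscar were at 0 in all libraries. Dendritic cell markers, 4 of 7 with a count, summed to at most 0.769 CPM in any library, and fibroblast and epithelial markers, 4 of 11 with a count, to at most 1.44 CPM, in control replicate 1. Of 13 neutrophil and mast cell markers 1 had a count, and of 8 lymphocyte markers 1. Whether differences in cell state marked by these genes play a part in the changes of the proteases was not tested.

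For the genes with the largest rise and the largest fall, the 3 genes with the nearest pattern were sought among 3707 genes, by Euclidean distance of log2(CPM + 0.5) centred per gene over the 6 libraries. Nearest to Ctsl were Mt2, a metallothionein (distance 0.212), Tmx4, a membrane thioredoxin-like protein (0.266), and Prdx5, a peroxiredoxin (0.268). Mt2 measured 201, 189 and 214 CPM in control and 41.5, 40.5 and 50.03 CPM in the labelled knockout libraries, so it shared the separation of the groups with Ctsl. Nearest to Ctsh were Tmem176a (0.248), Kpna2 (0.395) and Nrros (0.422). Since Ctsh was near 0 in control, its pattern and this choice depend on the added 0.5. The points of each distance share their libraries and scaling, and nothing on shared function follows from it.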

How the data were processed

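The authors deposited 1 table of whole-number counts per gene, without normalization, for the 6 RNA samples. Per the labels' protocols, RNA extraction used Trizol and library preparation used an Illumina kit. The genome build was GRCm38, per the submitters' processing notes. For the aligner, the counting tool and the strand setting, nothing is given in the sources used here. All value columns were matched to samples by name (0 left out). Of 55487 identifiers, 55227 had a symbol in GENCODE M21, whose coordinates are given. The total counts set the precision: 3 counts, the floor used, were far below 1 CPM in each library.

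The comparison was edgeR 4.0.16 in R 4.3.3 (TMM, filterByExpr, glmQLFit with robust fitting, glmQLFTest) over 12930 genes, with Benjamini-Hochberg adjustment at 0.05. The script was tested on simulated data. The SE of a log2 fold change was that value over the square root of its F statistic. Alternatives were DESeq2 1.42.0, other scalings and filters, left-out libraries and the other settings given in the closing section. Copies were sought with blastn 2.17.0, and promoter sequences are RefSeq's. The 10 genes and all lists were chosen with earlier results of these data known. Named were the 10 genes, up to 4 called genes with the smallest p per list (of a list with none, the 2 most abundant), and the 3 nearest patterns to the largest rise and fall, leaving out predicted models. Of the marker lists, counts and summed levels are given, with few examples.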

Additional observations from a re-analysis of the deposited data

How the results depend on the processing

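Genes called over the whole table ranged from 4845 to 5313 with each library left out, beside 5592, and were 5180 with library totals, where 59.8% of calls were higher in place of 48.5%. The 10 genes gave 9 or 10 calls in all 16 other settings and no reversal: 158 of their values kept direction and call, and 2, both Ctsc, newly passed. Deviations of log2 CPM from the group mean, over the genes tested, correlated at -0.006 to 0.028 between same-numbered libraries. These values gave no sign of pairing by number, but with 3 libraries per group they cannot exclude it. With the replicate number as a block, 5372 genes and 9 of the 10 were called. Of the other named genes' values, 344 kept direction and call, 26 lost the call, 7 gained it and 5 reversed. Inhibitors called went from 4 to between 2 and 4 with a library left out. With the length trend removed, 1 MiT/TFE gene was called in place of 3, and the median of that list was 0.069 and Tfe3 was at 0.069. With library totals, 0 partners of cathepsin A were called. Glb1 ran from -0.11 to 0.13 with a library left out (-0.03 and -0.06 without labelled knockout replicates 1 and 2) and was -0.073 with the length trend removed. Without the 10 most counted genes, the 10 genes held 4.14 and 5.45% of counts. With the longest transcript as length, 3 of the 10 changed rank in control and 2 in the labelled knockout libraries, and with the shortest full coding transcript, 5 and 2. The causes were not tested. Ctsh had 8 control counts in all, which limits its fold.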
